A study of Sus scrofa with 102 samples.

Results

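Genes of the blood vessel wall were followed in Longissimus dorsi, the loin muscle, of pigs from an Iberian x Landrace backcross: VEGFA, PECAM1, CLDN5, LIPG and KIT. These 5 genes were read from 6 of the 5449 probes that are not controls, on an array whose probes with a single symbol name 2201 genes. VEGFA, PECAM1, CLDN5 and KIT were taken by their symbol in the array annotation. LIPG was taken by the single probe named so in the publication, which carries no symbol in that annotation. VEGFA had 2 probes, and the one with the higher mean stands for the gene. In the RefSeq annotation of Sscrofa11.1 the genes lie on chromosomes 7 (VEGFA), 12 (PECAM1), 14 (CLDN5), 1 (LIPG) and 8 (KIT).

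Vessels of skeletal muscle are lined by endothelial cells, which respond to growth factors that muscle fibres release. VEGFA encodes the secreted growth factor that drives endothelial growth and is induced by low oxygen and by the coactivator encoded by PPARGC1A. PECAM1 encodes the adhesion molecule CD31 at contacts between endothelial cells, which platelets and leukocytes also carry, and CLDN5 a tight junction protein of endothelium. LIPG encodes endothelial lipase, which cleaves phospholipids of high density lipoprotein, and KIT the receptor of stem cell factor, known best from mast cells, melanocytes and blood progenitors.

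Each of 102 backcross pigs, 55 females and 47 males fed ad libitum, gave 1 array, and the pigs were killed in 3 batches. There were 8 females and 6 males in batch 1, 36 and 34 in batch 2, and 11 and 7 in batch 3. Age averaged 175.1, 180.7 and 180.6 days in batches 1, 2 and 3, and carcass weight 65.9, 73.3 and 64.6 kg. Females averaged 68.6 kg and males 73.2 kg. The muscle is a whole tissue, so fewer cells of a type and less RNA per cell cannot be told apart. Values are log2 intensities after GCRMA normalization by the authors. Apart from the rank of its mean among all probes, a probe's level is set only against its own level in other pigs.

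Of the listed endothelial markers, CDH5, VWF, TEK and ESAM were measured with means of 7.62, 7.09, 7.74 and 6.03, and the muscle marker TNNT1 with 14.2. The Y-linked EIF1AY had a median of 3.26 in pigs labelled female and 10.39 in pigs labelled male, and 3 arrays labelled female lay nearer to the male median. They stayed in the fits, and the sex differences without them are given below. A male of batch 2, pig 80, had the highest value of all 102 pigs for VEGFA (12.82), PECAM1 (9.90) and CLDN5 (7.51). It ranked 5 for LIPG (6.55) and 10 for KIT (4.89). The next highest CLDN5 value was 5.91.

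The 5 genes differed in how far they varied between pigs. VEGFA averaged 10.39 ± 1.05 (SD, n = 102) and ranged over 5.00 log2 units, and in 59 pigs (57.8%) it lay more than 1.5-fold from its own median. LIPG varied as widely, with 4.42 ± 1.15, a range of 5.24 and 60 pigs beyond 1.5-fold. PECAM1 was the steadiest of the members, with 8.38 ± 0.48, a range of 2.65 and 25 pigs beyond 1.5-fold. CLDN5 averaged 4.01 ± 0.69 and KIT 3.99 ± 0.58, with 27 and 31 pigs beyond 1.5-fold. By their means KIT, CLDN5 and LIPG lay low among all probes, at percentiles 8.3, 8.6 and 13.9. The second VEGFA probe lay at 16.7, while VEGFA and PECAM1 lay at 95.3 and 82.4. The second VEGFA probe averaged 4.64 ± 1.40 and followed the first closely. After sex, batch and weight were taken out, r between the VEGFA probes was 0.832 and rho 0.844 over 102 pigs (permutation p = 1e-05 for both, the smallest that 100000 permutations can give). Without the 2 pigs farthest from the median it was 0.825, and within batches 1, 2 and 3 it was 0.747, 0.895 and 0.698.

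The first comparison asked whether the vessel genes differ between the sexes. VEGFA, LIPG and PECAM1 were lower in females, and CLDN5 and KIT did not pass. Of all 5449 probes, 26.1% passed for sex (adjusted p under 0.05 in limma, fitted with slaughter batch and carcass weight), 11.7% higher in females and 14.4% lower. Under quantile normalization that split turned round, with 782 probes higher and 643 lower, while the members kept their direction.

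VEGFA ran from 8.39 over a median of 9.87 to 12.29 in females, against 7.82, 10.93 and 12.82 in males. The ranges overlapped, but 48 of 55 females lay below the male median, and 40 of 47 males above the female median. The fitted difference, female minus male, was -0.90 log2 units (SE 0.18, adjusted p = 9.9e-05 in limma). The second probe ran from 2.73 over 4.01 to 6.18 in females and from 2.85 over 5.08 to 8.24 in males. Its upper end was set by males, of which 17 lay above the highest female, and its difference was -1.16 (SE 0.21, adjusted p = 2.6e-05).

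LIPG ran from 2.38 over 4.17 to 6.25 in females, against 2.47, 4.63 and 7.62 in males. Again 38 of 55 females lay below the male median, and the difference was -0.79 (SE 0.21, adjusted p = 0.0033). PECAM1 ran from 7.24 over 8.30 to 9.37 in females, against 7.32, 8.39 and 9.90 in males. Here the groups overlapped nearly throughout, with 1 male above the highest female, and the difference was -0.29 (SE 0.09, adjusted p = 0.0094).

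CLDN5 ran from 2.88 over 3.89 to 4.81 in females, against 2.99, 3.95 and 7.51 in males. The medians were close, yet 10 males lay above the highest female, and the fitted difference was -0.24 (SE 0.13, adjusted p = 0.155). KIT ran from 2.65 over 3.91 to 5.03 in females, against 3.01, 3.94 and 5.57 in males, with a difference of -0.14 (SE 0.12, adjusted p = 0.406). The ranges of the sexes overlapped, and 34 of 55 females lay below the male median.

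Split by sex and batch, the 6 groups fell in a different order for each gene. For VEGFA the means were 11.04 in males of batch 2, 10.65 in males of batch 1, 10.16 in females of batch 2, 10.12 in males of batch 3, 10.10 in females of batch 1 and 9.35 in females of batch 3. No neighbours in that order lay more than 1 pooled SD apart. On the second VEGFA probe, males of batch 2 (5.86) lay 1.23 pooled SD above the next group, females of batch 2 (4.44). PECAM1 was highest in males of batch 1 (9.05), 1.03 pooled SD above the next group, females of batch 1 (8.54), and lowest in females of batch 2 (8.18). CLDN5 split into males of batches 2 and 1 and females of batch 2 (4.31, 4.10 and 4.08) and, 1.26 pooled SD lower, the other 3 groups (3.53 to 3.51). LIPG ran from 5.15 in males of batch 2 to 3.79 in females of batch 1, and KIT from 4.23 in females of batch 3 to 3.57 in females of batch 1, with no neighbours more than 1 pooled SD apart.

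**Figure D1:**
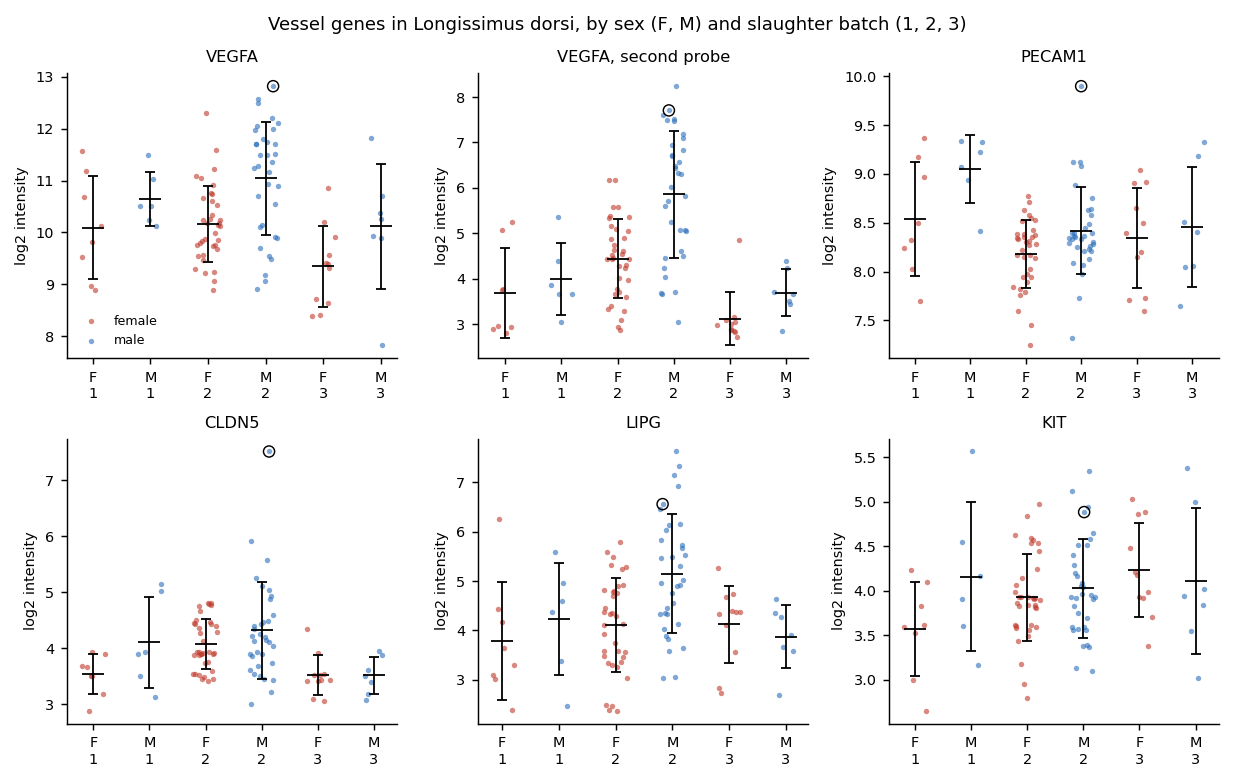
Log2 intensity (vertical axis) of the 5 vessel genes and the second VEGFA probe in each of the 102 pigs, females (F) left of males (M) within slaughter batches 1, 2 and 3; bars are the mean and SD of each group, and the ringed point is the male with the highest CLDN5. The highest group mean of VEGFA, 11.04, is that of the males of batch 2, and the lowest, 9.35, that of the females of batch 3.

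Within the batches the sex difference of VEGFA kept its direction, with -0.41 (SE 0.40), -0.97 (SE 0.22) and -0.91 (SE 0.43) in batches 1, 2 and 3. PECAM1 did the same with -0.46, -0.29 and -0.15. LIPG was lower in females of batch 2, by -1.10 (SE 0.26, adjusted p = 0.0013 in limma), while its differences were -0.31 (SE 0.56) in batch 1 and 0.19 (SE 0.34) in batch 3. CLDN5 differed by -0.57, -0.22 and 0.004, and KIT by -0.53, -0.12 and 0.22. In batch 2, which holds 70 of the pigs, VEGFA (adjusted p = 0.00087), LIPG and PECAM1 (0.020) passed, where 32.4% of all probes did. In batches 1 and 3, where 0.239% and 0.294% of probes passed, none of the 5 did. The sex differences were not shown to vary between batches. No probe of 5449 passed for the interaction of sex and batch in limma (0%, with 425 at an unadjusted p under 0.05), and LIPG had F = 3.13 (p = 0.0477, adjusted p = 0.64).

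Without the 3 arrays that go against their sex label, the differences were -0.94 for VEGFA, -0.85 for LIPG, -0.30 for PECAM1, -0.21 for CLDN5 and -0.12 for KIT, and the same members passed. Without pig 80 they were -0.86, -0.76, -0.26, -0.18 and -0.12, again with the same members passing.

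**Figure D2:**
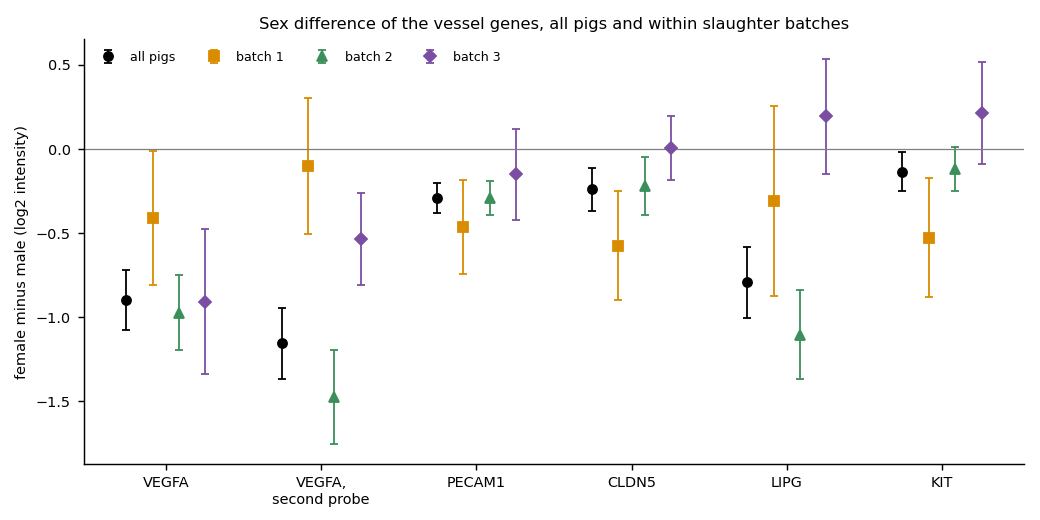
Fitted difference, female minus male, in log2 intensity with its standard error, for each vessel gene in all 102 pigs and within slaughter batches 1, 2 and 3. VEGFA lies below 0 in all 4 fits (-0.90, -0.41, -0.97 and -0.91), while LIPG and KIT lie above 0 in batch 3.

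Other endothelial genes did not share 1 direction between the sexes. Of 22 measured genes of a list of 58, 3 were higher in females and 5 lower (11.7% and 14.4% of all probes). The median difference was -0.19, against -0.03 over all probes. PALMD (palmdelphin) was higher in females by 0.43 (SE 0.10), VCAM1, an adhesion molecule for leukocytes, by 0.30 (SE 0.09), and CD93, a lectin-like receptor, by 0.34 (SE 0.11). ESAM, an adhesion molecule of endothelial junctions, was lower in females by -0.33 (SE 0.10), as were TEK, the angiopoietin receptor (-0.21), PROCR (-0.29), TM4SF1 (-0.34) and the water channel AQP1 (-0.27). The mean of the 22 genes ranged from 6.71 to 7.97 in females and from 6.71 to 8.02 in males.

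Among genes of the VEGF pathway and the response to low oxygen, 17 of 48 were measured. Of these, 1 was higher in females and 4 were lower, against 11.7% and 14.4% of all probes. CXCL12, a chemokine, was higher in females by 0.54 (SE 0.10). PPARGC1A (-1.43, SE 0.26), STAT3 (-0.38, SE 0.08), EPAS1, which encodes the oxygen-sensitive factor HIF-2 alpha (-0.57, SE 0.13), and the angiogenesis inhibitor THBS1 (-0.62, SE 0.21) were lower in females. The other 12 did not pass, among them HIF1A with -0.23 (SE 0.09, adjusted p = 0.058). The median of the 17 was -0.17.

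Of 13 measured genes of lipases and lipoprotein handling (27 listed), FABP5 (-0.30, SE 0.08) and PLTP, the phospholipid transfer protein (-0.36, SE 0.10), were lower in females, 2 of 13 where 14.4% of all probes were lower, and none was higher. LPL, the lipase that shares its fold and its place on endothelium with LIPG, differed by -0.04 (SE 0.13). Of the 6 measured genes of KIT signalling and mast cells (31 listed), GRB2, an adaptor of receptor kinases, was lower in females (-0.62, SE 0.11) and MS4A2, the mast cell IgE receptor subunit, higher (0.40, SE 0.10). That is 1 of 6 each way, where 14.4% of all probes were lower and 11.7% higher. MS4A2 was also the only mast cell marker measured of 6. In the pericyte and smooth muscle list ANPEP (-0.47) and TAGLN (-0.43) were lower, 2 of 9 measured where 14.4% of all probes were lower, and none was higher. Of 8 measured fibroblast genes 3 were higher in females, FAP (0.45), DCN (0.27) and FBN1 (0.29), where 11.7% of all probes were higher, and none was lower. None of 6 macrophage and 8 slow fibre genes passed for sex, where 26.1% of all probes did. The mean of the macrophage genes ranged from 3.55 to 7.27 in females and from 3.27 to 6.68 in males. The part of these cell types in the sex differences of the vessel genes was not tested.

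The second comparison set the slaughter batches against each other, and it moved most of the array: 86.6% of all probes passed the F test for batch in limma. VEGFA (adjusted p = 0.00047), CLDN5 (0.0011), PECAM1 (0.0127) and LIPG (0.0345) passed, and KIT did not (0.208). That is 4 of 5 members, near the share of all probes.

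The members did not follow 1 pattern over the batches. VEGFA had medians of 10.37, 10.43 and 9.73 in batches 1, 2 and 3, with ranges of 8.89 to 11.58, 8.89 to 12.82 and 7.82 to 11.82. Batch 2 minus batch 3 was 1.02 (SE 0.25, adjusted p = 0.00011 in limma, where 81.5% of probes passed). Batch 1 minus batch 2 was -0.34 (SE 0.27, adjusted p = 0.237, 74.2% of probes passing), and batch 1 minus batch 3 was 0.68 (SE 0.31, adjusted p = 0.128, 16.8% passing). The second VEGFA probe had medians of 3.71, 4.97 and 3.07, and differed by -1.31 for batch 1 minus batch 2 (adjusted p = 0.00013) and by 1.75 for batch 2 minus batch 3 (adjusted p = 6.7e-08). For batch 1 minus batch 2 both VEGFA probes had a value below 0, which passed for the second probe only, and the difference between the probes was not tested.

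CLDN5 was highest in batch 2, with medians of 3.68, 4.12 and 3.47 and ranges of 2.88 to 5.14, 2.99 to 7.51 and 3.06 to 4.34. Batch 2 minus batch 3 was 0.65 (SE 0.18, adjusted p = 0.00052 in limma), and batch 1 minus batch 2 was -0.40 (SE 0.19, adjusted p = 0.051). LIPG had medians of 3.91, 4.51 and 4.30, with differences of -0.68 (SE 0.31, adjusted p = 0.0448) for batch 1 minus batch 2 and 0.61 (SE 0.29, adjusted p = 0.0454) for batch 2 minus batch 3. Its batch result was lost without the 3 arrays against their sex label (adjusted p = 0.051) and under quantile normalization (0.130).

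PECAM1 was higher in batch 1 than in batch 2, with medians of 8.95, 8.32 and 8.40 and ranges of 7.70 to 9.37, 7.24 to 9.90 and 7.59 to 9.32. Batch 1 minus batch 2 was 0.40 (SE 0.13, adjusted p = 0.0047 in limma), and batch 2 minus batch 3 was -0.03 (SE 0.12). Batch 1 minus batch 3 was 0.37 (SE 0.16) and did not pass (adjusted p = 0.084 in limma). Batch 1 held the youngest pigs on average, at 171 to 181 days (median 177) against 178 to 184 and 178 to 181 in batches 2 and 3. Age and batch thus went together, and their parts in the level of a member cannot be told apart. With age added to the fit the adjusted p of PECAM1 for batch was 0.909, and its slope per day of age, with batch in the fit, was -0.08 (SE 0.02, adjusted p = 0.064, against 0.312% of probes passing for age). KIT had medians of 3.72, 3.92 and 4.00 and none of its 3 differences passed, while with age in the fit its batch F test had an adjusted p of 0.0429.

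The endothelial list leaned the way of PECAM1. Between batches 1 and 2, 10 of its 22 genes were higher in batch 1 and 3 lower (32.7% and 41.5% of all probes), with a median difference of 0.35 against -0.11 over all probes. Between batches 2 and 3, 5 were higher and 8 lower in batch 2 (45.3% and 36.2% of all probes), with a median of -0.20 against 0.17. This lean was not particular to the endothelial list. The fibroblast list had 5 of 8 genes higher and 1 lower in batch 1 than in batch 2 (median 0.59). The slow fibre list had 3 of 8 higher and none lower (median 0.26). Between batches 2 and 3 their medians were -0.43 and -0.36. The macrophage list leaned so only between batches 1 and 2 (medians 0.25 and 0.28). The VEGF and oxygen list leaned the way of VEGFA: 10 of 17 genes were higher and 3 lower in batch 2 than in batch 3, with a median of 0.80. So did the pericyte and smooth muscle list, with 8 of 9 genes higher and 1 lower. The difference between the 5' and middle probes of actin, a measure of RNA integrity, averaged -1.28, -0.80 and -1.32 in batches 1, 2 and 3, so it moved with batch, but it averaged -0.97 in females and -0.94 in males. With it in the fit the calls of the members for sex and batch stayed the same. Its part in the batch differences was not tested beyond that.

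Carcass weight passed for none of the 5449 probes in limma (0%, with 589 at an unadjusted p under 0.05), and so for none of the members. The slopes per 10 kg were -0.19 (SE 0.09, adjusted p = 0.453) for VEGFA, -0.10 (SE 0.05, 0.450) for PECAM1, -0.12 (SE 0.11) for LIPG, -0.02 (SE 0.06) for KIT and 0.006 (SE 0.07) for CLDN5. With array weights PECAM1 had a slope of -0.14 (adjusted p = 0.0499), where 126 probes passed.

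The next comparison asked which of the 5 genes vary together between pigs, on residuals after sex, batch and weight. All 10 pairs were tested with 100000 two-sided permutations and adjusted over the 10. In all, 5 pairs passed, of which PECAM1 takes part in 3 and LIPG in 1.

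PECAM1 and CLDN5 had the highest r, 0.541, with a rho of 0.471 (permutation p = 1e-05 for both, the smallest possible, adjusted p = 5e-05 for r). Without the 2 pigs farthest in PECAM1 r was 0.439, and without pig 80 it was 0.446. Within batches 1, 2 and 3 it was 0.377, 0.656 and 0.268, and only batch 2 passed. CLDN5 and KIT had r = 0.446 and rho = 0.405 (permutation p = 2e-05 and 4e-05, adjusted p = 6.7e-05 for r), and 0.392 without the 2 farthest pigs. Their r was 0.646, 0.425 and 0.457 in batches 1, 2 and 3. VEGFA and PECAM1 had r = 0.444 and rho = 0.390 (permutation p = 1e-05 and 7e-05, adjusted p = 5e-05 for r). Within batches 1, 2 and 3 it was 0.747, 0.379 and 0.564. It was 0.444 without the 2 farthest pigs and 0.306 with the second VEGFA probe.

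VEGFA and LIPG had r = 0.388 and rho = 0.341 (permutation p = 4e-05 and 0.00039, adjusted p = 0.0001 for r), with 0.363 without the 2 farthest pigs and 0.610, 0.393 and 0.174 in batches 1, 2 and 3. PECAM1 and KIT had r = 0.357 and rho = 0.344 (permutation p = 0.00027 and 0.00049, adjusted p = 0.00054 for r), with 0.285 without the 2 farthest pigs and 0.267, 0.398 and 0.283 in the batches. In limma, adjusted over all probes, PECAM1 and KIT passed with PECAM1 as the term (adjusted p = 0.00224) but not with KIT as the term (adjusted p = 0.105). Of 5448 probes, 1605 passed with PECAM1 as the term and 2 with KIT. Pigs high in VEGFA thus tended to be high in PECAM1 and in LIPG, and pigs high in PECAM1 tended to be high in CLDN5 and KIT.

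The other 5 pairs did not pass. For VEGFA and CLDN5, r was 0.056 and rho -0.003 (permutation p = 0.576 and 0.977). Without covariates it was 0.238 (adjusted p = 0.027), so the crude correlation of VEGFA and CLDN5 was not found after sex, batch and weight were taken out. For VEGFA and KIT, r was 0.031 and rho 0.040 (permutation p = 0.758 and 0.688). For PECAM1 and LIPG r was 0.110 and rho 0.099 (permutation p = 0.269 and 0.320), and for LIPG and KIT r was 0.023 and rho -0.007 (permutation p = 0.816 and 0.942). For CLDN5 and LIPG, r was -0.115 and rho -0.198 (permutation p = 0.250 and 0.0461). This pair turned on few pigs: without pig 80 its r was -0.231 (adjusted p = 0.034), and without the 2 pigs farthest in CLDN5 it was -0.331 (adjusted p = 0.0014). Pig 75, a male of batch 2, had the highest LIPG (7.62) and the second highest CLDN5 (5.91).

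**Figure D3:**
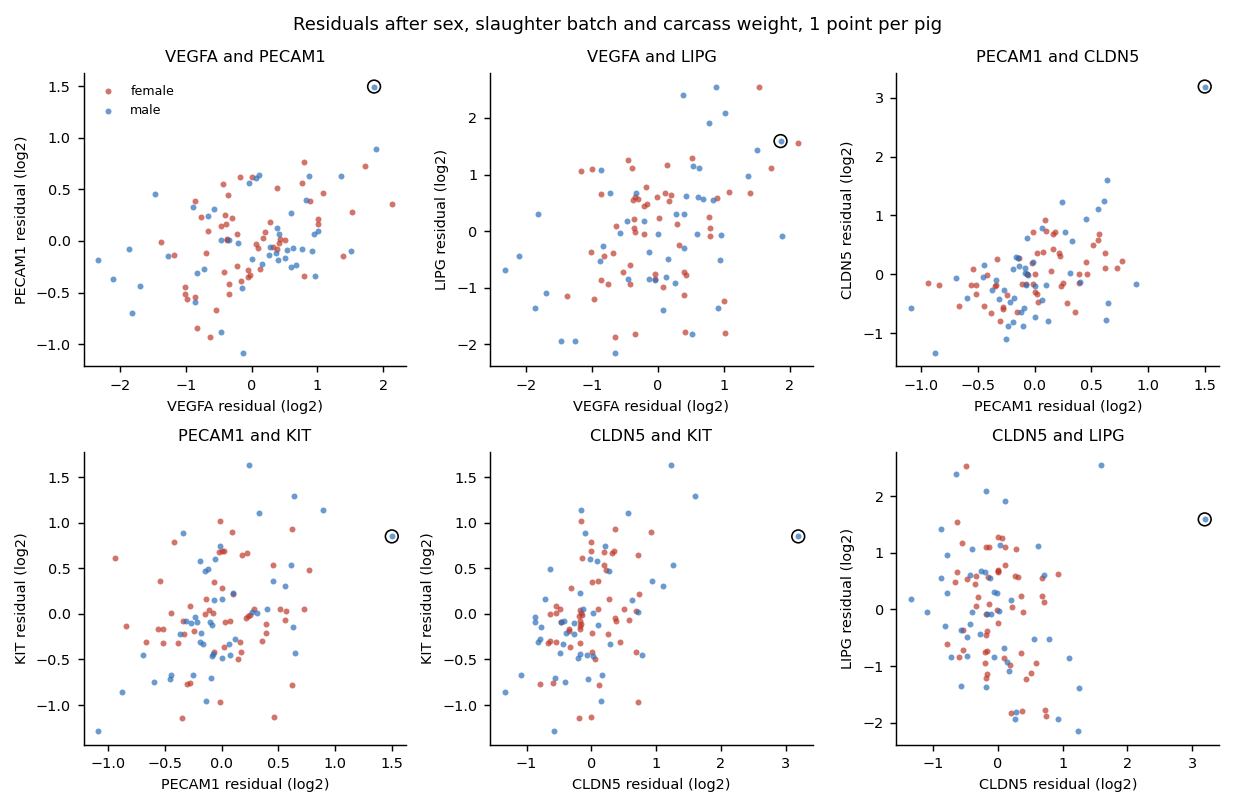
Residual log2 values of 6 pairs of vessel genes after sex, slaughter batch and carcass weight, 1 point per pig, females and males in different colours, with pig 80 ringed. The panel of PECAM1 and CLDN5 (r = 0.541) has r = 0.446 without the ringed pig, and that of CLDN5 and LIPG has r = -0.115 with it and -0.231 without.

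Several pairs had a lower r in females, but no difference between the sexes passed when adjusted over all probes. For PECAM1 and KIT, r was 0.065 over 55 females and 0.587 over 47 males. For CLDN5 and KIT it was 0.255 in females and 0.534 in males, and for VEGFA and LIPG 0.269 and 0.478. The difference itself was tested with a term of member by sex in limma, chosen after these values were seen. The slope of KIT per SD of PECAM1, female minus male, was -0.31 (SE 0.10, p = 0.0034), with an adjusted p of 0.204 over all probes, and 0 of 5448 probes passed. No pair of members passed this test, and the adjusted p-values ran from 0.204 to 0.996. Among all probes, 18 passed with LIPG as the term, and none with VEGFA, CLDN5 or KIT.

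Each member was then set against all 5448 other probes, with its residual as the tested effect in limma. The members differed widely in how much of the array moved with them. With VEGFA 36.6% of probes passed (1128 with it and 868 against it), with PECAM1 29.5% (1072 and 533), with LIPG 13.7% (467, or 8.57%, and 279, or 5.12%), with CLDN5 3.51% (159 and 32) and with KIT 0.0367% (2 and 0). The second VEGFA probe moved with 50.9%. LIPG, CLDN5 and KIT were read from probes with low means, and the part of weak signal in their counts was not tested. All these counts depend on what is held fixed. With 2 principal components of the residuals added, 352 probes moved with VEGFA, 1859 with PECAM1, 423 with CLDN5, 173 with LIPG and 88 with KIT. Without pig 80, 31 moved with CLDN5, against 191 with it, and 1850, 1270, 685 and 2 moved with VEGFA, PECAM1, LIPG and KIT.

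**Figure D4:**
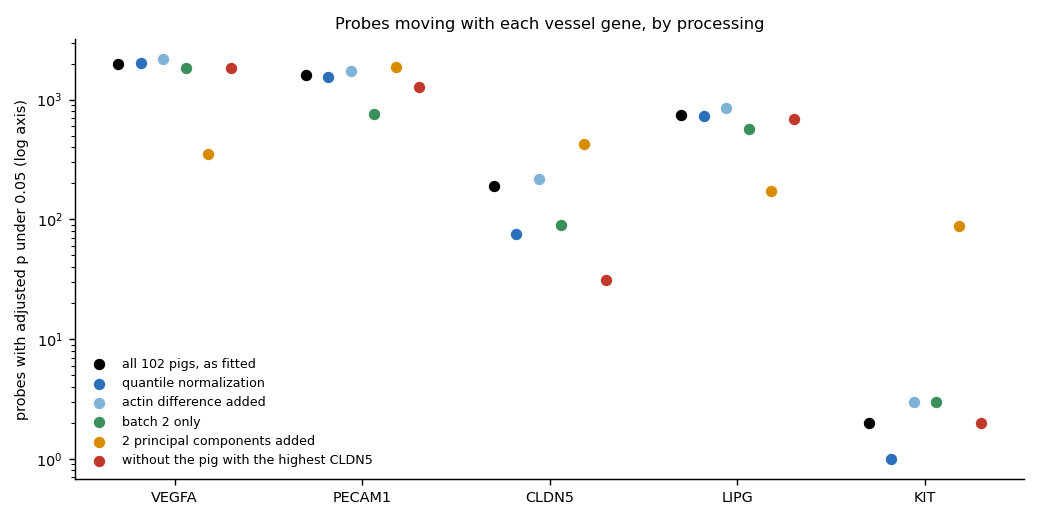
Number of probes (logarithmic axis) that moved with each vessel gene at an adjusted p under 0.05 in limma, over all 102 pigs and under 5 other settings, 1 point per setting. CLDN5 spreads from 31 probes without pig 80 to 423 with 2 principal components added, and VEGFA lies at 352 with the components and between 1833 and 2169 in the other settings shown.

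Here and for the other members, the genes most like or most opposite were ranked only among probes with 1 gene symbol. Most like VEGFA in that ranking, beside its second probe, were 5 genes. PRKAG2, a subunit of the AMP-activated kinase, had r = 0.80 (rho 0.77), PPARGC1A 0.75 (0.68), YWHAH, a 14-3-3 protein, 0.75 (0.73), WDR37 0.71 (0.71) and RGCC 0.71 (0.67). These 5 had the same sign in every batch, and PPARGC1A had 0.70, 0.80 and 0.59 in batches 1, 2 and 3. Opposite to VEGFA ran SGF29, of a histone acetylation complex (r = -0.72), the homeobox genes SIX4 (-0.67) and MEIS1 (-0.65), and TBCC, a tubulin folding cofactor (-0.65). MEIS1 rested on batch 2, where r was -0.82, with -0.06 in batch 1 and 0.10 in batch 3. Most like the second VEGFA probe were TBC1D1 (0.77), WDR45 (0.76), the chaperone partner BAG3 (0.75), UBAP2L (0.74) and TMEM251 (0.73), and on the opposite side MEIS1, SIX4, TBCC and BMPR1A (-0.71). All permutation p-values of these genes were 1e-05.

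PECAM1 was most like S1PR1, the receptor for sphingosine 1-phosphate on endothelial cells, on 2 probes (r = 0.84 and 0.80, rho 0.83 and 0.76). The first of them had 0.76, 0.82 and 0.95 in batches 1, 2 and 3. ITM2A, a membrane protein, had 0.76, CDH5, the cadherin of endothelial junctions, 0.73, the kinase anchor AKAP2 0.72 and TNFRSF21 0.71. Opposite to PECAM1 ran GLO1, the glyoxalase (-0.59), BAG5 (-0.56), VKORC1L1 (-0.54) and AP2B1 (-0.52). Without the 2 pigs farthest in PECAM1 the sizes of these r lay between 0.433 and 0.813.

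CLDN5 was most like ANGPTL4, the inhibitor of lipoprotein lipase, on 2 probes (r = 0.59 and 0.56, rho 0.51 and 0.48), followed by PECAM1, ATP2A2, the calcium pump of slow fibres (0.49), CYSLTR2, a leukotriene receptor (0.49), and ECHDC2 (0.48). Without pig 80 these were 0.46 and 0.43 for ANGPTL4, 0.43 for ATP2A2, 0.44 for CYSLTR2 and 0.42 for ECHDC2, and all still passed (adjusted p = 0.0061 to 0.0084 in limma). KLF10, a transcription factor, ran opposite (-0.37, and -0.42 without pig 80). SAV1 (-0.33), KDSR (-0.32) and MLLT3 (-0.32) no longer passed without that pig, with adjusted p-values of 0.724, 0.153 and 0.525.

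LIPG was most like CREM, which acts on genes in cyclic AMP signalling (r = 0.53). SMPDL3A, a phosphodiesterase, had 0.52, NDEL1 0.52, the orphan receptor NR4A3 0.52, the factor KLF4 0.52 and TMEM251 0.51. Batch 3 did not share 3 of them: there r was -0.26 for CREM, -0.22 for NDEL1 and -0.08 for NR4A3. Opposite to LIPG ran TBCC (-0.61), SIX4 on 2 probes (-0.53 and -0.51) and CEP85 (-0.46). One of the SIX4 probes had 0.15 in batch 3. TBCC and SIX4 were thus among the 4 most opposite genes of both VEGFA and LIPG.

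With KIT only SAT1, of polyamine breakdown (r = 0.45, rho 0.38), and CLDN5 passed. Next in order were CDH5 (0.37), the interferon-induced IFIT3 (0.37), PECAM1 (0.36) and PARP9 (0.36), each with an adjusted p of 0.105 in limma, and on the opposite side ENTPD4 (-0.41, adjusted p = 0.071), RRP36 (-0.36), CLP1 (-0.35) and TAMM41 (-0.35).

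Most genes of the endothelial list moved with PECAM1. With PECAM1, 15 of 22 measured genes moved in its direction and 2 against it (19.7% and 9.78% of all probes), with a median r of 0.44 against 0.035 over all probes. The highest were S1PR1 (0.84), CDH5 (0.73), TEK (0.70) and AQP1 (0.63), and those opposite were PALMD (-0.28) and CD93 (-0.25), which no longer passed without pig 80. With VEGFA, 9 moved in the same direction and 3 opposite (20.7% and 15.9%), with a median r of 0.19 against 0.015. S1PR1, TEK and AQP1 each had an r of 0.50, and PALMD (-0.42), CD93 (-0.28) and VCAM1 (-0.27) ran opposite.

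With CLDN5, 6 of the 22 moved in the same direction and none opposite (2.92% and 0.587% of all probes), with a median r of 0.20 against 0.026. They were CDH5 (0.44), the endothelial factor ERG (0.42), RGS5 (0.41), which is known better from pericytes, ESAM (0.40), S1PR1 (0.40) and TEK (0.35). Without pig 80 only RGS5 passed (0.37), while the median r was 0.16. With LIPG, the factor ETS2 (0.40) and PROCR, the receptor of protein C (0.38), moved in the same direction and PALMD (-0.34) opposite. That is 2 and 1 of 22, near the 8.57% and 5.12% of all probes, and the median r was 0.004 against -0.027. With KIT none passed, where 0.0367% of all probes did, and the median r was 0.14 against 0.024. Although LIPG is named for the endothelium, its median r with the endothelial genes was nearest to 0 of the 5 members. The probes of LIPG, CLDN5 and KIT had low means, and the part of weak signal in their r was not tested.

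**Figure D5:**
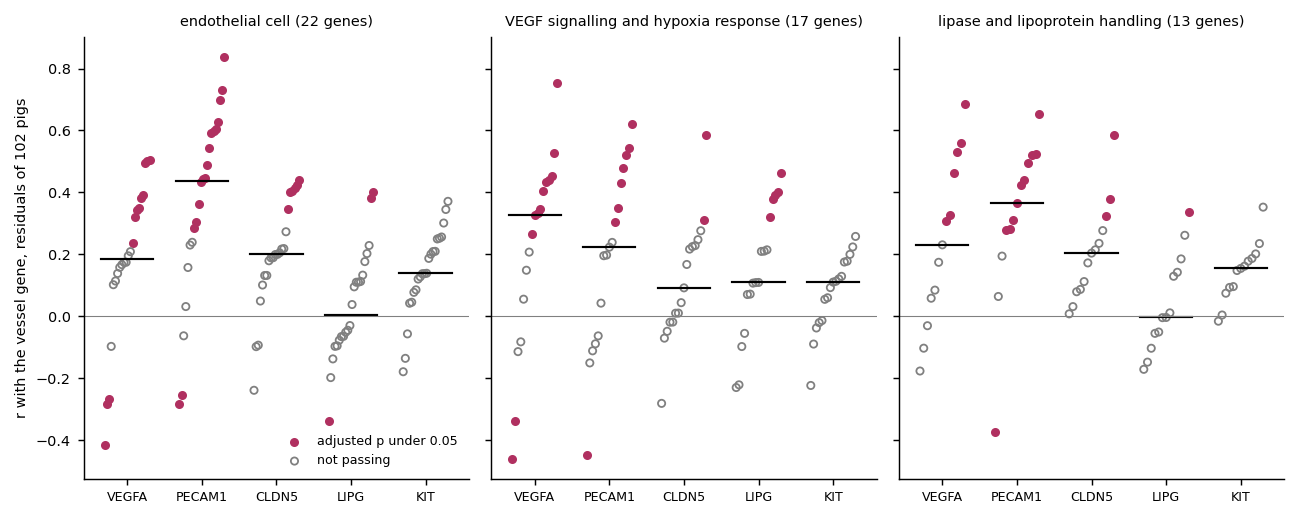
Correlation r of each measured gene of 3 lists (vertical axis) with each vessel gene (horizontal axis), on residuals of 102 pigs; filled points passed at an adjusted p under 0.05 in limma, open points did not, and lines are medians. The endothelial medians are 0.19, 0.44, 0.20, 0.004 and 0.14 for VEGFA, PECAM1, CLDN5, LIPG and KIT.

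Genes of the VEGF pathway and the oxygen response moved most with VEGFA. In the same direction moved 10 of 17 and opposite 2 (20.7% and 15.9% of all probes), with a median r of 0.33. PPARGC1A (0.75), HIF1A (0.53), EPAS1 (0.45) and THBS1 (0.44) were among them, and CXCL12 (-0.46) and RORA (-0.34) ran opposite. With PECAM1 7 moved in the same direction and 1 opposite (19.7% and 9.78% of all probes). The Notch ligand JAG1 (0.62), EPAS1 (0.54) and ANGPTL4 (0.52) led. LIPG moved with PPARGC1A (0.46), THBS1 (0.40), HIF1A (0.39), STAT3 (0.38) and the peptide hormone ADM (0.32), which all moved with VEGFA too. That is 5 of 17, where 8.57% of all probes moved with LIPG. CLDN5 moved with ANGPTL4 (0.59) and EPAS1 (0.31), and KIT with none. Of all probes, 2.92% moved with CLDN5 and 0.0367% with KIT. Without pig 80, ANGPTL4 had r = 0.46 with CLDN5 and still passed, and EPAS1 had 0.26 and did not (adjusted p = 0.251 in limma).

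In the lipase list 10 of 13 genes moved with PECAM1 and 1 opposite (19.7% and 9.78% of all probes), with a median r of 0.37. The highest were FABP5 (0.65), ANGPTL4 (0.52), LPL (0.52) and FABP3 (0.50), and VLDLR (-0.37) ran opposite. With VEGFA 6 moved in the same direction, where 20.7% of all probes did. FABP3, the fatty acid carrier of muscle (0.68), FABP5 (0.56), LPL (0.53) and PLTP (0.46) led. With LIPG only LPL did (0.34), 1 of 13 where 8.57% of all probes did. With CLDN5 3 did, ANGPTL4, APOA1 (0.38) and MGLL (0.32), where 2.92% of all probes did. Without pig 80, MGLL had r = 0.25 with CLDN5 and no longer passed (adjusted p = 0.315 in limma), and APOA1 had 0.40 and passed. None moved with KIT, where 0.0367% of all probes did. Of the KIT and mast cell list none of 6 moved with KIT either, and MS4A2 had r = 0.06 with it.

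Genes of other cells and fibres moved with the vessel genes as well. Over all probes, the shares moving in the same direction were 20.7% with VEGFA, 19.7% with PECAM1, 2.92% with CLDN5, 8.57% with LIPG and 0.0367% with KIT. All 8 measured slow fibre genes moved with VEGFA (r from 0.30 to 0.43) and with PECAM1 (0.30 to 0.66, TPM3 highest), 3 with CLDN5 (ATP2A2, TPM3 and CASQ2), and none with LIPG or KIT. Without pig 80 none of these 3 passed with CLDN5 (adjusted p = 0.051, 0.254 and 0.880 in limma). The list reads ATP2A2 from another probe than the one named above among those most like CLDN5. That other ATP2A2 probe still passed without pig 80 (adjusted p = 0.0061 in limma), so the call for ATP2A2 differed between its probes. The mean of these 8 genes ranged from 8.28 to 11.63 in females and from 9.53 to 11.84 in males. All 6 measured macrophage genes moved with PECAM1, with MRC1 (0.46) and CD163 (0.43) highest, as did 5 of 8 fibroblast and 6 of 9 pericyte and smooth muscle genes. With VEGFA these were 2, 0 and 5, and COL3A1 of the fibroblast list ran against it (-0.44). With the second VEGFA probe, 1 macrophage and 7 pericyte genes moved in the same direction. Against that probe ran 5 of 8 fibroblast genes, with a median r of -0.27, and of -0.06 with the first probe. Of all probes, 50.9% passed with the second probe in either direction. The difference between the VEGFA probes was not tested. Without pig 80, 7 slow fibre, 5 macrophage, 5 fibroblast and 3 pericyte genes moved with PECAM1, and 3 pericyte genes with VEGFA. No listed gene of lymphocytes, platelets or red cells was measured, and 1 of 20 junction genes was. The part of these cells in the relations among the vessel genes was not tested.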

How the data were processed

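Muscle RNA of 102 pigs had been hybridised to Affymetrix porcine arrays, 1 array per pig. The authors read the arrays with GCOS and normalized them by GCRMA, and the deposited values are log2 intensities from 0.80 to 16.00. The authors also kept probes with over 20% of values beyond 1.5-fold of their median; 5340 of the 5449 probes used here met that rule when it was recomputed, with all 6 member probes among them (24.5% to 74.5% of pigs beyond 1.5-fold), and genes removed by it are not analysed here. Of 5493 probes, 44 controls were left out, and 2639 of the rest had 1 gene symbol, 49 several and 2761 none. Arrays carry no counts, so the number of pigs limits the precision. The pigs are related, but every fit took them as independent, so p-values may be too small.

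Members and lists were chosen with earlier results of these data known. The main test was limma 3.58.1 in R 4.3.3 (lmFit, eBayes) with terms for sex, batch and carcass weight, and p-values were two-sided and adjusted over all probes (Benjamini-Hochberg). For probes moving with a member, the member's residual per SD was added. Correlations used residuals and 100000 permutations (Python 3.11.15, numpy 2.4.6). The text names the members, and up to 4 genes per list and comparison by smallest p. Of the probes with 1 gene symbol, it names the 6 most like and the 4 most opposite to each member. Where a set of 6 or fewer passed, or a contrast needed it, others were named after their values were seen. Lists use the probe with the highest mean per gene. Fits were tested on simulated data. Alternatives were quantile normalization, a minimum mean, age or the actin 5' minus middle difference added, array weights, batch as a random block, no covariates, batch 2 or 1 sex alone, 2 principal components added, the other VEGFA probe and leaving out the 3 arrays against their sex label (for counts of probes and correlations added after seeing the data) or, also added then, pig 80. Figures used matplotlib 3.10.9.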

Additional observations from a re-analysis of the deposited data

How the results depend on the processing

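Of 306 recomputed values, 258 were classed as unchanged. For sex differences, weight slopes and correlations this meant the same direction and side of the threshold. For batch F tests, which have no direction, it meant the same side of the threshold, and for counts of probes a count of similar size. The sex differences of VEGFA (-1.16 to -0.80), LIPG (-1.10 to -0.74), CLDN5 (-0.28 to -0.18) and KIT (-0.14 to -0.12) kept theirs in the fits of all batches and of batch 2. The value of -1.16 is that of the second VEGFA probe. In batch 3 alone LIPG (0.19), KIT (0.22) and CLDN5 (0.0042) had the other sign without passing, and in batch 1 alone all 3 were lower (-0.31, -0.53 and -0.57), also without passing. For PECAM1 the difference without other covariates was -0.24 (adjusted p = 0.055 in limma). For batch, the adjusted p of PECAM1 with age added was 0.909, that of KIT 0.0429, and that of LIPG 0.130 under quantile normalization and 0.0507 without the 3 arrays against their sex label. Slopes on weight passed nowhere but for PECAM1 with array weights (-0.14), and 1 probe passed without the 3 arrays. Slopes near 0 changed sign: 0.038 for VEGFA and 0.076 for LIPG without other covariates, -0.019 for CLDN5 with array weights and -0.0037 without pig 80, and 0.0027 for KIT with age added. With 2 principal components 352, 423, 173 and 88 probes moved with VEGFA, CLDN5, LIPG and KIT. In batch 2 alone 757 moved with PECAM1 and 90 with CLDN5, under quantile normalization 75 with CLDN5 and 1 with KIT, and without pig 80 31 with CLDN5. Among the pairs, batch 1 gave 0.610 for VEGFA and LIPG, 0.377 for PECAM1 and CLDN5, 0.267 for PECAM1 and KIT and 0.646 for CLDN5 and KIT, none of which passed with 14 pigs. Batch 3, with 18 pigs, gave 0.564 for VEGFA and PECAM1, 0.174 for VEGFA and LIPG, 0.268 for PECAM1 and CLDN5, 0.283 for PECAM1 and KIT and 0.457 for CLDN5 and KIT, again without passing. In females alone 3 pairs no longer passed, VEGFA and LIPG (0.269), PECAM1 and KIT (0.065) and CLDN5 and KIT (0.255). VEGFA and CLDN5 had 0.238 without covariates, which passed, and -0.0029 by rho, -0.051 in batch 1 and -0.065 without pig 80. VEGFA and KIT had -0.029 in batch 2, -0.087 in females and -0.0018 without pig 80. CLDN5 and LIPG passed without the 2 farthest pigs (-0.331) and without pig 80 (-0.231), and had 0.055 without covariates. LIPG and KIT had -0.0073 by rho, -0.040 without the 2 farthest pigs, -0.479 in batch 1, -0.040 in females and -0.00011 without pig 80. The cause of these changes was not tested beyond the smaller number of pigs within a batch or sex. KIT, with a mean of 3.99, could not be tested under a minimum mean of 4. No paired analysis was possible because the pigs of different groups share no numbers in the labels. The relatedness of the pigs was not modelled, and neither cell composition nor protein was measured.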
